A study of Saccharomyces cerevisiae with 151 samples.

Results

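The nuclear genes of the yeast respiratory chain and ATP synthase, together with HAP4, were followed before and after the addition of aminotriazole. They formed a set of 39 genes among 5611 genes tested. The set was chosen by gene name. It held the 4 subunits of succinate dehydrogenase (complex II; SDH1 to SDH4), 9 of the cytochrome bc1 complex (complex III; COR1, QCR2, QCR6 to QCR10, RIP1 and CYT1), 2 forms of cytochrome c (CYC1 and CYC7) and 10 genes of cytochrome c oxidase (complex IV; COX4, COX5A, COX5B, COX6 to COX9, COX12, COX13 and COX26). It also held 5 genes of the F1 sector of ATP synthase (ATP1, ATP2, ATP3, ATP15 and ATP16), 7 of its Fo sector and stalk (ATP4, ATP5, ATP7, ATP14, ATP17, ATP18 and ATP20), the internal NADH dehydrogenase NDI1, and HAP4. All 39 had a probe set annotated to no other gene and passed the filter on low signals.

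Strains were Saccharomyces cerevisiae BY4741 (WT) and BY4741 with a deletion of GCN4 (gcn4), LEU3 (leu3), GAT1 (gat1) or MET31 (met31), or of a pair of these factors (gat1gcn4, gcn4leu3, gat1leu3). Cells grew in SC medium at 28 °C to an OD600 of 0.5, a sample was taken as 0 min, and 3-aminotriazole (3AT) was then added to 100 mM. WT and the gcn4, leu3 and gat1 strains were sampled at 0, 10, 20, 30, 45, 60, 90 and 120 min, and the other strains up to 60 min. There were 3 arrays per group in 45 groups, 2 in 5 groups (gat1gcn4 at 0 min and again at 45 min, gat1leu3 at 45 min, gcn4 at 60 min, gat1 at 20 min), and 1 at each time for met31. As background, BY4741 carries deletions of HIS3, LEU2, MET15 and URA3, which all the strains derived from it would share.

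The respiratory chain passes electrons from NADH and succinate through ubiquinone, complex III and cytochrome c to oxygen at complex IV, and ATP synthase uses the proton gradient that results. Budding yeast has no proton-pumping complex I. The single-subunit enzyme NDI1 oxidises matrix NADH in its place. Many nuclear genes of these complexes are activated by the Hap2/3/4/5 complex, of which Hap4 is the limiting activation subunit and is repressed by glucose. COX5A and COX5B encode alternative aerobic and hypoxic forms of one oxidase subunit, and CYC1 and CYC7 the corresponding forms of cytochrome c. 3AT inhibits the histidine enzyme His3 and also catalase. Whether it starved these strains, which would lack HIS3, of an amino acid was not tested. GCN4, LEU3, GAT1 and MET31 encode regulators of amino acid synthesis, branched-chain amino acid synthesis, nitrogen catabolic genes and sulfur amino acid metabolism.

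Signals below are linear MAS5 intensities after each array was set to a 2% trimmed mean of 500. Changes are differences in log2(signal + 16) with their standard error (SE), and a gene is called changed where limma's p is under 0.05 after Benjamini-Hochberg adjustment across the 5611 genes. A signal is compared between samples for one gene and never between genes. RNA came from whole cultures, so a change in every cell and a larger change in some of them cannot be told apart, and the spread behind each p-value may be technical, because separate cultures are not stated for the replicates.

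Of the 151 arrays, 78 had been deposited on a common scale and 73 had not. The unscaled arrays were all those of met31 and the double deletions, and replicate 3 of gcn4 and of leu3, so scale and strain cannot be told apart when a double deletion is set against WT. GCN4 read at most 434 on 56 of the 57 arrays of gcn4 deletions and 2285 on the other, gcn4 90 min replicate 3, against at least 4538 on arrays with the gene. MET31 read at most 14.4 in met31 and at least 169 elsewhere. The deletion arrays of LEU3 and GAT1 overlapped with the others: LEU3 read up to 35.7 where deleted and 1.05 to 309 elsewhere, with a median of 119, and GAT1 up to 39.8 where deleted and 24.7 to 337 elsewhere. The libraries labelled gat1leu3 0 min and 10 min disagreed between replicates on genes that respond to 3AT within 10 min. EEB1 read 454 to 1013 at 0 min and 71.4 to 97.6 at 10 min in WT, whereas in gat1leu3 it read 88.1, 21.2 and 588 at 0 min and 403, 510 and 84.8 at 10 min in replicates 1, 2 and 3. FRM2, YAT2 and AGP1 also ran the opposite way in replicates 1 and 2 compared with replicate 3 and WT. The labels were kept, and the members called in gat1leu3, its count at 0 min and its HAP4 difference at 20 min are given with and without those 4 libraries. Its other values are given only with them. Readings of some members fell far below the same gene on the strain's other arrays. In 6 of 5889 member readings the gene lay more than 3 log2 units below both its strain and its group: COX12, ATP7 and ATP14 in gat1gcn4 0 min replicate 3, COX5A in gcn4leu3 10 min replicate 3, and SDH4 and COR1 in gat1leu3 0 min replicate 2. Those arrays had 90, 50 and 123 such genes, where the median array had 0. On the gat1gcn4 array, 98.9% of them had a probe set number within 1000 of that of ATP7, against 24.3% of all genes tested. On the gcn4leu3 array 86% lay as near to COX5A, against 26.4% of all genes. On the gat1leu3 array the shares were nearer to those of all genes, at 34.1% around SDH4 against 25.4% and 28.5% around COR1 against 25.9%.

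HAP4 had the largest and most lasting fall of the 39 genes in WT. Its signal at 0 min was 384, 438 and 255 on the 3 arrays. It was 99.4, 101 and 87.8 at 10 min and 51.3, 83.5 and 55.6 at 20 min. No array after 0 min reached the lowest array at 0 min. Signals then lay higher between 30 and 60 min, from 98.5 to 159, and at 120 min they were 68.0, 77.7 and 77.6. The mean at 20 min was 63.5 ± 17.5 (SD, n = 3), against 359 ± 94.1 (SD, n = 3) at 0 min, a change of -2.23 ± 0.34 (SE; adjusted p = 1.42e-06). HAP4 was also called lower at 10 min (-1.71, adjusted p = 0.000794), 30 min (-1.39, 0.0105), 45 min (-1.28, 0.0306), 90 min (-1.93, 0.000189) and 120 min (-2.02, 4.38e-05). At 60 min the change was -1.17 ± 0.34 with an adjusted p of 0.0781. It was called with only the 2 groups in the fit (0.0217), on scaled arrays only (0.00063), with array quality weights and with a pseudocount of 64 (0.0483). The replicate number as a block also gave a call (0.0238). The calls at 10, 20, 90 and 120 min held without any single array. The call at 30 min was lost without WT 0 min replicate 1 or 2 or WT 30 min replicate 2 (adjusted p up to 0.124), and that at 45 min without WT 0 min replicate 1 or 2 or any array of 45 min (adjusted p up to 0.241). The genes of the 3 other subunits of its complex, HAP2, HAP3 and HAP5, were not called at any of these times, with changes at 20 min between -0.13 and 0.27.

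**Figure D1:**
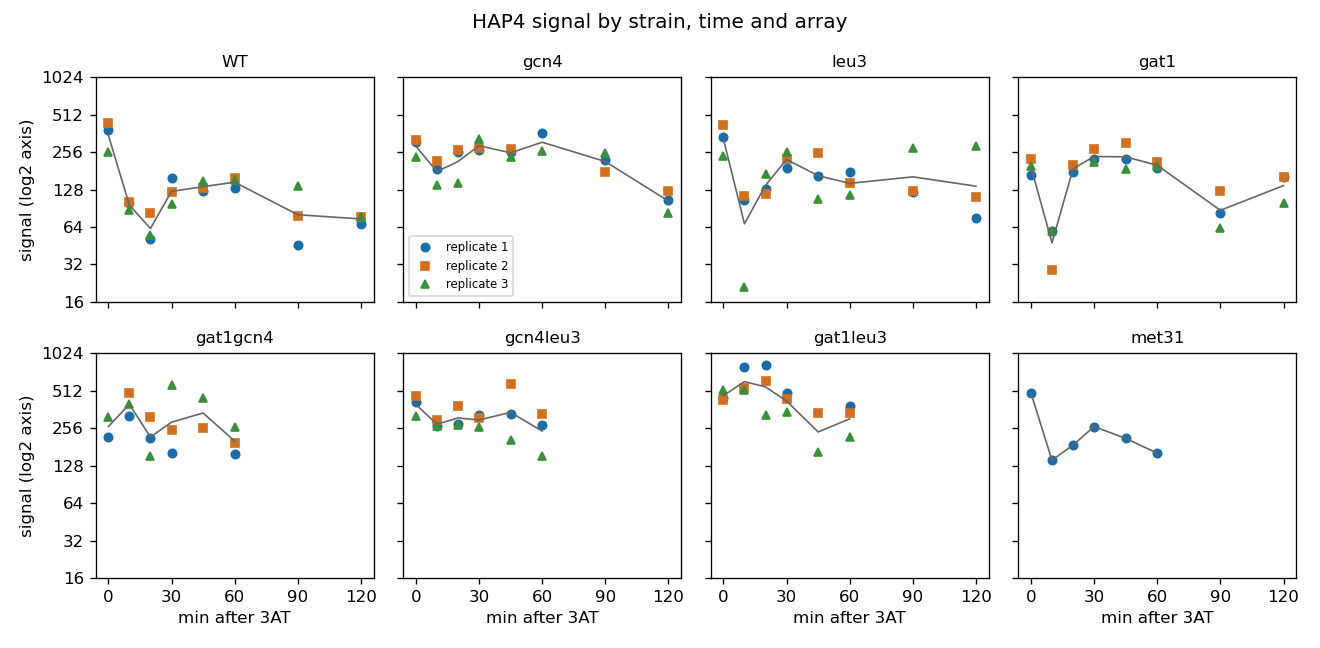
HAP4 signal (log2 axis, arrays set to a trimmed mean of 500) against minutes after 3AT in each strain; symbols are arrays by replicate number and the line joins group means of log2(signal + 16). In WT all arrays after 0 min lie below the 0 min arrays, at 51.3 to 83.5 at 20 min, while the 3 double deletions stay at 152 or above.

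HAP4 was also lower at 10 min in leu3 and gat1, and in gcn4 it was called only at 120 min. In leu3 it read 339, 426 and 240 at 0 min and 106, 114 and 21.2 at 10 min, a change of -2.03 ± 0.34 (adjusted p = 6.48e-05). In gat1 it read 168, 225 and 197 at 0 min and 59.9, 28.9 and 59.9 at 10 min, a change of -1.73 ± 0.34 (adjusted p = 0.000613). Neither strain's arrays at 0 and 10 min overlapped. The later course differed in level: gat1 read 176 and 201 at 20 min and 189 to 301 at 45 min, within or above its range at 0 min, whereas WT stayed below 160 from 10 min on. By 90 min gat1 read 83.4, 124 and 62.8, and at 120 min 161, 162 and 99.7. These arrays lay below its range at 0 min, without a call. In gcn4 the signals were 310, 321 and 233 at 0 min, then 188, 218 and 138 at 10 min, followed by 257, 267 and 144 at 20 min. Its first called fall came at 120 min, with 106, 126 and 82.5 (-1.33 ± 0.34, adjusted p = 0.00861), a call that was lost without gcn4 0 min replicate 1 or 2 (adjusted p up to 0.0672). In the double deletions HAP4 was not called by limma at any later time, with adjusted p-values of at least 0.229. The unadjusted p was under 0.05 at 60 min in gcn4leu3 and at 45 min in gat1leu3.

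The difference between strains in the HAP4 change from 0 to 20 min was tested directly. It was 1.96 ± 0.51 for gat1gcn4 minus WT (adjusted p = 0.0196; background 1.53%) and 2.45 ± 0.48 for gat1leu3 minus WT (adjusted p = 0.00173; background 1.35%). The gat1gcn4 arrays read 220 and 318 before 3AT, and 213, 315 and 152 after 20 min. The gat1leu3 arrays read 451, 434 and 522 before it, and 822, 613 and 328 after 20 min. In both strains the arrays of the 2 times overlapped. The gat1gcn4 difference lost its call without any of 7 single arrays (WT 0 min replicates 1 and 2, WT 20 min replicates 1 and 3, gat1gcn4 0 min replicates 1 and 3, gat1gcn4 20 min replicate 2), with an adjusted p of up to 0.117. Without the gat1leu3 0 and 10 min libraries of replicates 1 and 2, which leaves 1 array at 0 min, the gat1leu3 difference was 2.30 with an adjusted p of 0.255. For the other strains the difference from WT was 1.84 ± 0.48 in gcn4 (adjusted p = 0.0589), 2.17 ± 0.51 in gat1 (0.0503), 1.88 ± 0.48 in gcn4leu3 (0.0575) and 1.08 ± 0.48 in leu3 (0.565). With only the compared groups in the fit, the adjusted p was 0.0131 in gat1, 0.0183 in gcn4leu3 and 0.135 in gcn4, and the gat1gcn4 call was lost (0.62). With isolated low readings masked it was 0.0488 in gat1 and 0.0448 in gcn4leu3, and the gat1gcn4 call was lost again (0.0602). On scaled arrays only, the gcn4 and gat1 differences were called (0.000237 and 7e-05). Those of gcn4, gat1 and gcn4leu3 were each called with the replicate number as a block (0.0178, 0.0179 and 0.0156). The same held with array quality weights (0.000649, 0.000685 and 0.000126) and with the deposited scale as a block (0.0464, 0.0467 and 0.043). Quantile normalization gave calls in gcn4 (0.0444) and gat1 (0.0325). On the values as deposited none of them was called. All 6 differences share the WT arrays. At 60 and 120 min no difference in the HAP4 change was called, with adjusted p-values of at least 0.607, though that of gat1 at 120 min was called on scaled arrays only (0.0138) and with array quality weights (0.00224). In the same test 4 subunits of gat1gcn4 and 2 of gat1leu3 were called at 20 min, and 3 of gat1gcn4 at 60 min (background 1.09%); their values and the arrays they rest on are given with the observations that follow the report. At 60 min no member of gat1leu3 was called (background 0%), with 5 subunits at an unadjusted p under 0.05 in limma. In met31, with 1 array per time and no test, HAP4 read 492 at 0 min, 142 at 10 min, 188 at 20 min and 161 at 60 min.

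The subunit genes of WT lay lower after 3AT by a smaller amount, and few of them passed the test. Across the 38 subunits the median change was -0.35 at 10 min, -0.54 at 20 min, -0.23 at 60 min and -0.36 at 120 min, where the median over all genes tested was between -0.07 and -0.12 at those times. At 20 min 31 of 38 subunits were below 0 and 7 above. Of the 39 members, 1 was called at 10 min (background 1.27% of all genes), 2 at 20 min (2.21%), 2 at 30 min (1.48%), 1 at 45 min (1.09%), 0 at 60 min (0.82%), 2 at 90 min (0.749%) and 3 at 120 min (1.23%), all of them lower. HAP4 is among each of those counts except that at 60 min, where 2 of the 38 subunits had an unadjusted p under 0.05 in limma. The count at 20 min was 0 on the values as deposited and 8 with only WT 0 and 20 min in the fit. It was also 8 with the replicate number as a block, 9 with scaled arrays only and 18 with array quality weights. The counts of 8 and the 18 each include 1 member that was higher, CYC1. In an F-test over the 7 later times, 5 of 39 members were called (12.8%, against 7.2% of all genes): SDH3, QCR2, ATP1, ATP16 and HAP4.

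**Figure D2:**
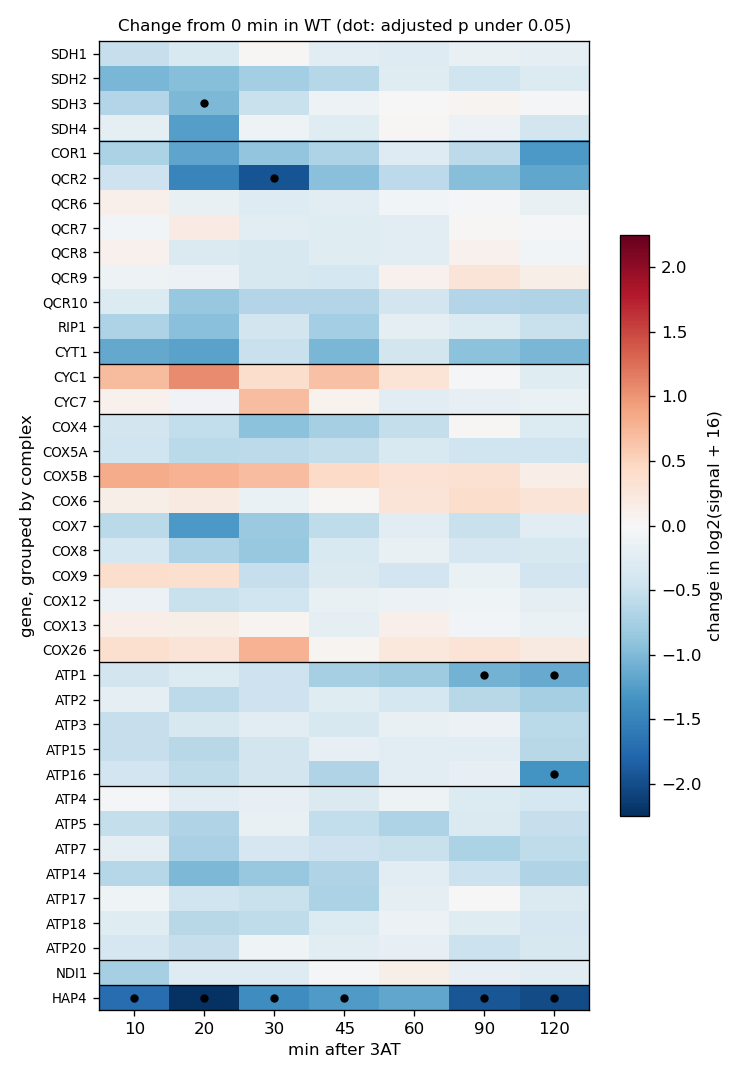
Change from 0 min in WT for the 39 genes (rows, grouped by complex and separated by lines; the last row is HAP4) at 7 times (columns), in log2(signal + 16); blue is lower and red higher, and a dot marks an adjusted p under 0.05. Most cells are blue, HAP4 carries 6 of the 11 dots, and CYC1 and COX5B are red at 10 and 20 min.

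In complex II, SDH3, a membrane anchor subunit, was called lower at 20 min. It read 1051, 1230 and 859 at 0 min, then 352, 737 and 504 at 20 min, and was back at 1086, 1059 and 963 by 60 min. The arrays at 20 min lay below those of both other times. The change was -1.004 ± 0.28 from 0 to 20 min (adjusted p = 0.0313) and 1.002 ± 0.28 from 20 to 60 min (adjusted p = 0.0283; background 2.33%), and it rose from 20 to 120 min as well (0.96, adjusted p = 0.0381; background 2.92%). The fall lost its call without WT 0 min replicate 1 or 2 or WT 20 min replicate 1 or 3 (adjusted p up to 0.359), and the rise to 60 min without WT 20 min replicate 1 or 3 or any array of 60 min (up to 0.317). The rise to 120 min was lost without WT 20 min replicate 1 or 3 or any array of 120 min (up to 0.306). SDH2, the iron-sulfur subunit, had changes of -1.03 ± 0.38 at 10 min and -0.95 at 20 min that were not called (adjusted p of 0.234 and 0.215), although its arrays at 0 min (929, 960 and 681) and at 10 min (383, 374 and 468) did not overlap.

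In complex III the core subunit gene QCR2 read 802, 689 and 624 at 0 min, then 136, 447 and 227 at 20 min, followed by 418, 33.5 and 287 at 30 min. It was called at 30 min (-1.94 ± 0.45, adjusted p = 0.00649), but without WT 30 min replicate 2, the change was -0.98 with an adjusted p of 0.577, and without WT 0 min replicate 1 the adjusted p was 0.0547. At 20 min the QCR2 change of -1.48 ± 0.45 had an adjusted p of 0.0612. Cytochrome c1, encoded by CYT1, changed by -1.20 ± 0.46 at 20 min without a call (adjusted p = 0.182). The small subunits QCR6, QCR7, QCR8 and QCR9 had values between -0.32 and 0.18 at 20 min.

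Among the genes of cytochrome c and the oxidase, CYC1 and COX5B had values above 0 at 20 min. CYC1, the aerobic cytochrome c, read 638, 802 and 634 at 0 min and 1150, 2019 and 1314 at 20 min, so that the 2 sets of arrays did not overlap. Its change of 1.06 ± 0.38 was not called (adjusted p = 0.146), but was with only the 2 groups in the fit (0.0302) and with array quality weights (0.00301). The replicate number as a block gave a call too (0.0232). At 120 min CYC1 read 675, 340 and 793, lower than at 20 min by -1.33 ± 0.38 (adjusted p = 0.0339), a call lost without WT 20 min replicate 2 or 3 or WT 120 min replicate 2 (adjusted p up to 0.324). COX5B, the hypoxic form of subunit V, read 192, 259 and 187 at 0 min and 387, 450 and 339 at 10 min, a change of 0.84 ± 0.46 (adjusted p = 0.557). Its aerobic counterpart COX5A read 1235, 1312 and 1015 at 0 min and 973, 691 and 668 at 20 min (-0.61 ± 0.43, adjusted p = 0.583). CYC7 changed by -0.09 at 20 min. The lowest oxidase value at 20 min was that of COX7, a small subunit (-1.29 ± 0.42, adjusted p = 0.0902).

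In WT the ATP synthase genes of the set were called only late. ATP1, the alpha subunit of F1, read 1566, 1630 and 1842 at 0 min, against 827, 654 and 931 at 90 min, with 680, 581 and 1074 at 120 min. Its changes were -1.06 ± 0.27 at 90 min (adjusted p = 0.0284) and -1.14 ± 0.27 at 120 min (adjusted p = 0.0101). ATP16, the delta subunit, read 1997, 2257 and 1959 at 0 min and 1398, 831 and 441 at 120 min (-1.35 ± 0.29, adjusted p = 0.00328). For both genes the arrays of the times compared did not overlap. The ATP16 call was lost without WT 120 min replicate 3 (adjusted p = 0.148), the ATP1 call at 120 min without WT 0 min replicate 3 or WT 120 min replicate 2 (up to 0.165), and that at 90 min without any array of 0 min or WT 90 min replicate 1 or 2 (up to 0.283). All 5 F1 genes and all 7 genes of Fo and the stalk had values below 0 at 20, 60 and 120 min, with medians at 120 min of -0.75 and -0.40. The lowest value of Fo and the stalk at 20 min was that of ATP14 (-1.01 ± 0.47, adjusted p = 0.32). NDI1 changed by -0.76 ± 0.41 at 10 min (adjusted p = 0.549).

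Genes of neighbouring pathways in WT showed calls in the citric acid cycle, which supplies NADH and succinate. The share of all genes called was 1.27% at 10 min and 2.21% at 20 min, 2.33% from 20 to 60 min and 2.92% from 20 to 120 min. Of its 11 genes 2 fell at 10 min, ACO1 (-1.74, adjusted p = 0.00912) and IDH1 (-2.31, 0.000151), and 3 at 20 min, with FUM1 added (-1.26, 0.0169). The list's median change at 20 min was -0.95. From 20 to 60 min the same 3 genes rose, by 1.64 for ACO1, 1.40 for IDH1 and 1.20 for FUM1. Among 5 genes of other electron donors, NDE1, the external NADH dehydrogenase, was called lower from 20 to 120 min, with -1.63 at 20 min and -1.53 at 120 min. In heme synthesis 1 of 8 genes fell at 20 min, the oxygen-dependent HEM13 (-1.86, adjusted p = 0.00176), and from 20 to 120 min HEM13 rose by 2.41 and HEM14 by 1.10. HEM13 is also 1 of 8 genes in the list of hypoxic Rox1 targets, of which AAC3 (1.86) and TIR1 (1.77) rose over the same interval. At 20 min 1 of 28 oxidase and bc1 assembly genes fell (PET100, -1.18). In the list of 10 ATP synthase assembly and inhibitor genes 1 fell, ATP19 (-1.51), a subunit gene that was not in the set. No member of the lists for ubiquinone synthesis (8 genes), mitochondrially encoded subunits (5) and large subunit mitochondrial ribosomal proteins (16) was called in WT at 20, 60 or 120 min against 0 min.

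**Figure D3:**
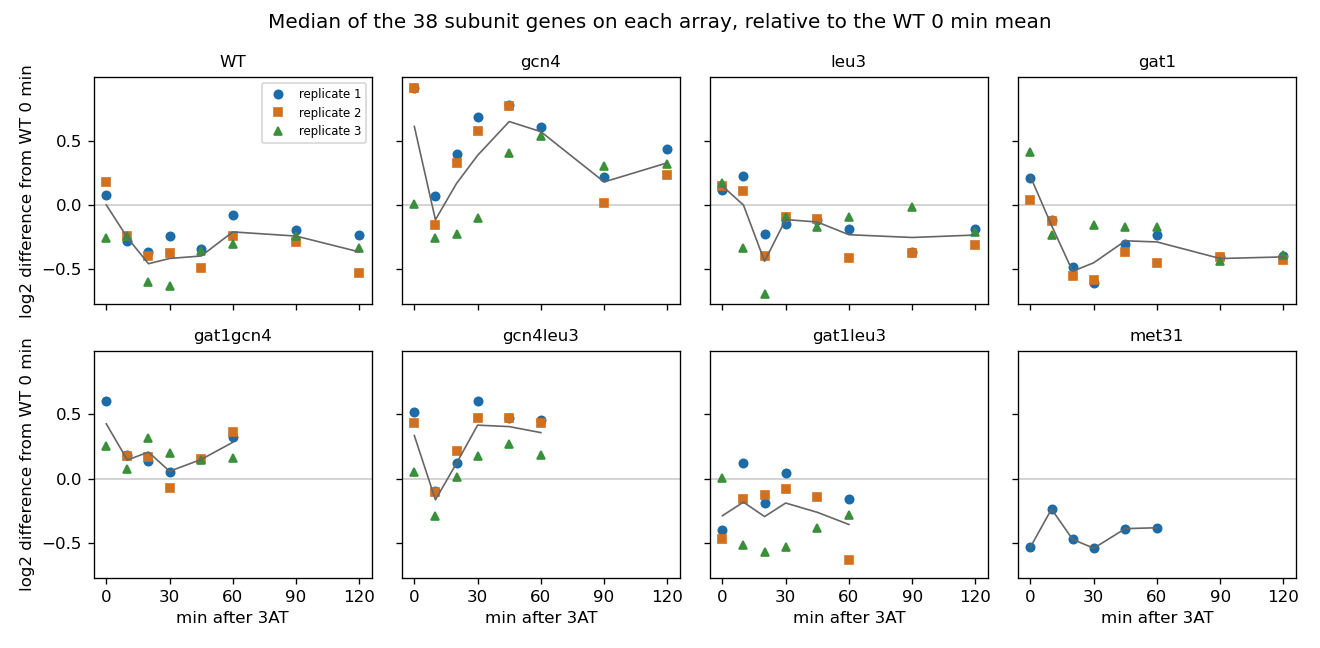
Median over the 38 subunit genes of the difference in log2(signal + 16) from the WT 0 min mean, for each array (symbols by replicate number) against minutes after 3AT; lines join group means. In gcn4 at 0 min replicates 1 and 2 lie at 0.91 and replicate 3 at 0.01, and in gat1leu3 replicate 3 runs apart from replicates 1 and 2 at 0 and 10 min.

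Before 3AT, 5 members were higher in gcn4 than in WT (background 4.85% of all genes called, 2.83% higher), and no member was lower. The 5 were CYC7 and COX5B, the hypoxic forms of cytochrome c and of oxidase subunit V, the oxidase genes COX6 and COX26, and QCR9 of complex III. The median change of the 38 subunits was 0.64, with all 38 above 0, against a median of 0.01 over all genes. HAP4 had the opposite sign without a call (-0.28 ± 0.34, adjusted p = 0.812). COX5B read 192, 259 and 187 in WT and 1702, 1861 and 290 in gcn4 (2.14 ± 0.46, adjusted p = 0.000723). CYC7 read 81.2, 92.6 and 55.6 in WT and 1222, 1094 and 101 in gcn4 (2.58 ± 0.59, adjusted p = 0.00172). In both genes replicates 1 and 2 of gcn4 stood far above WT and replicate 3 lay just above its highest array. COX26, a small oxidase-associated protein, read 63.9, 93.2 and 43.5 in WT and 667, 456 and 69.6 in gcn4 (1.91 ± 0.44, adjusted p = 0.00172), and its replicate 3 lay within the WT range. QCR9 (1.27 ± 0.37, adjusted p = 0.0257) read 5518, 5413 and 2955 in gcn4 against 2444, 2179 and 1159 in WT. COX6 changed by 0.94 ± 0.29 (adjusted p = 0.0388). COX5A and CYC1, the aerobic counterparts, changed by 0.05 and 0.79 and were not called.

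The difference at 0 min rested on which gcn4 arrays entered. Without gcn4 0 min replicate 3 the count was 15, without replicate 1 it was 1 and without replicate 2 it was 0. Without a WT array it was 3 or 4. On scaled arrays only, which leaves out replicate 3, 23 members were higher, beside 1032 genes called in all, and on the values as deposited the count was 0 and the median over members was -0.52. With only the 2 groups in the fit the count was 0. COX5B lost its call without gcn4 replicate 2 (adjusted p = 0.0649), CYC7 and COX26 without gcn4 replicate 1 or 2 (up to 0.169), QCR9 without those or WT replicate 3 (up to 0.281), and COX6 without those or any WT array (up to 0.369). A list of 16 general stress genes moved with the same arrays. Of these, 11 were higher in gcn4 at 0 min, with a median change of 2.80, and their median log2 level was 10.2, 10.0 and 7.98 in replicates 1, 2 and 3 against 7.13 to 7.25 in WT. Its part in the result was not tested. Among neighbouring pathways INH1 and STF1, inhibitors of ATP synthase, were higher in gcn4 at 0 min (2.46 and 1.86), as were COQ4 of ubiquinone synthesis (1.41), the lactate dehydrogenase gene CYB2 (1.24) and the glucose-repressed genes HXK1 (3.62), HXT7 (2.91) and GLK1 (1.95). No gene of the citric acid cycle (11), heme synthesis (8) or oxidase and bc1 assembly (28) was called there.

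**Figure D4:**
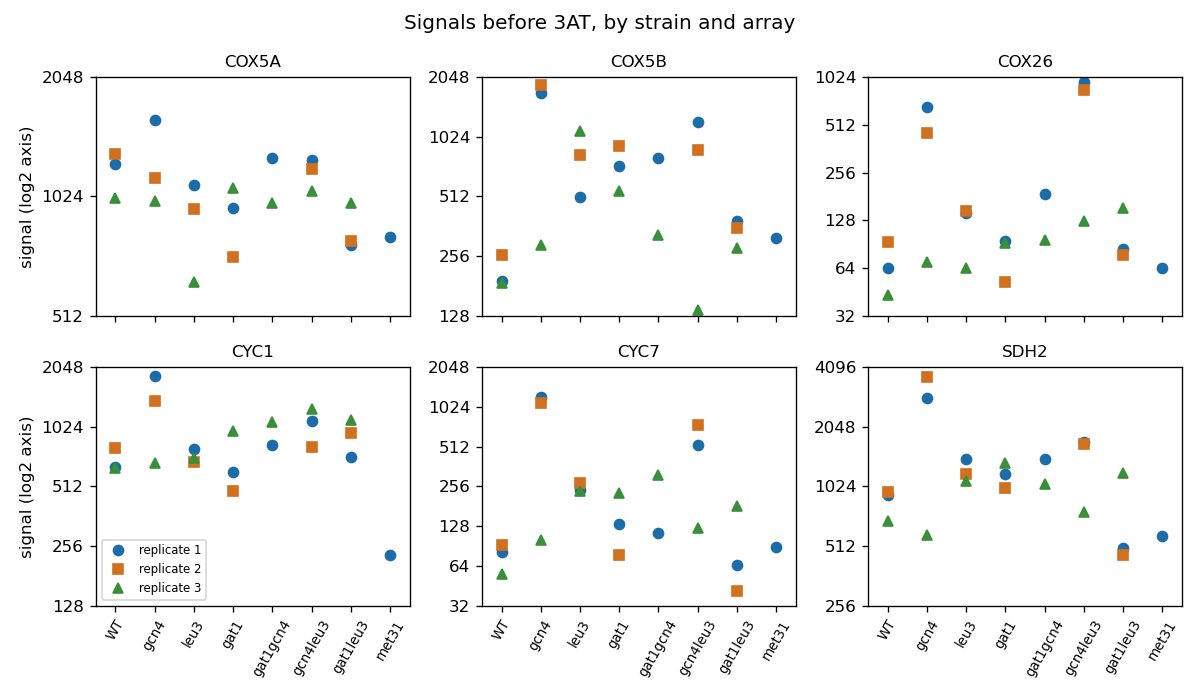
Signals at 0 min (log2 axis) of COX5A, COX5B, COX26, CYC1, CYC7 and SDH2 in each strain, by array and replicate number. COX26 and CYC7 are highest in replicates 1 and 2 of gcn4 and gcn4leu3; COX5B is highest in replicates 1 and 2 of gcn4, and replicate 3 of these strains reads 290 and 137.

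After 10 min of 3AT, 7 members of gcn4 were lower than at its own 0 min (background 9.57%, 4.71% lower): SDH2, SDH3, COR1, CYT1, COX4, COX26 and NDI1. All 39 members had values below 0, with a median of -0.69 against -0.10 over all genes. SDH2 read 2861, 3664 and 581 at 0 min and 637, 433 and 389 at 10 min (-1.91 ± 0.38, adjusted p = 0.000351), SDH3 fell by 1.28 (0.000975) and NDI1 from 484, 413 and 255 to 112, 109 and 116 (-1.59 ± 0.41, adjusted p = 0.00565). For SDH3 and NDI1 the arrays of the 2 times did not overlap, while for SDH2 replicate 3 at 0 min lay within the range of 10 min. COX4 changed by -1.15 ± 0.30 (0.00544). The count was 21 without gcn4 0 min replicate 3, 2 without gcn4 0 min replicate 1 or 2, 22 on scaled arrays only, 15 with the replicate number as a block, 27 with array quality weights, and 0 on deposited values or with only the 2 groups in the fit. SDH2 held without any single array, and the other 6 lost their call without at least 1 of gcn4 0 min replicates 1 and 2 or gcn4 10 min replicates 1 and 3 (adjusted p up to 0.506). Of the 16 stress genes 7 fell as well, with a median change of -1.40, and 8 of 28 oxidase and bc1 assembly genes fell, among them COX17 (-1.47), a copper chaperone, and PET117 (-1.58).

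At later times fewer gcn4 members were called. At 20 min (background 4.49%) SDH3 and COX4 were lower, at 30 min (3.05%), 45 min (2.55%) and 60 min (1.6%) 0 members were called by limma, with 4, 3 and 5 of the 38 subunits at an unadjusted p under 0.05. The calls at 20 min were lost without gcn4 0 min replicate 1 or 2 (adjusted p up to 0.395). At 60 min the count was 4 without gcn4 0 min replicate 3 and 5 with array quality weights. At 90 min (3.17%) CYC7 (-2.03), COX5B (-1.63) and COX26 (-1.68) were lower than at 0 min, and at 120 min (5.36%) COX26 (-1.39), ATP2 (-1.63) and HAP4. COX5B, at 1702, 1861 and 290 before 3AT, read 309, 229 and 406 at 90 min, with 391, 460 and 386 at 120 min, so that replicate 3 was not lower at either time. Each of these calls was lost without gcn4 0 min replicate 1 or replicate 2, with adjusted p-values of up to 0.494. The COX5B call was also lost without gcn4 90 min replicate 1 or 2 (0.0852 and 0.174), and that of CYC7 without any array of 90 min. At 120 min the call of COX26 was also lost without replicate 1 or 3 of that time, and that of ATP2 without replicate 1 or 2. Without gcn4 90 min replicate 3, in which GCN4 was high, COX5B kept its call and CYC7 and COX26 did not (adjusted p of 0.141 and 0.0785). With all groups in the fit, no member was called different from WT in its change to 20, 60 or 120 min in gcn4 (background 0.321%, 0.143% and 0.0713%), where 1, 4 and 2 subunits had an unadjusted p under 0.05.

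In leu3 and gat1 no member was called against WT at 0 min (background 0.178% and 0.0891%), with 2 and 1 subunits at an unadjusted p under 0.05 in limma. COX5B was nevertheless higher in level on every array, at 508, 832 and 1098 in leu3 and 731, 921 and 546 in gat1, against 187 to 259 in WT, with differences of 1.80 ± 0.46 (adjusted p = 0.0625) and 1.69 ± 0.46 (adjusted p = 0.217). With only the compared groups in the fit, COX5B was called in both strains (0.00911 and 0.0139). CYC7 was then called in leu3 too (0.00665), where it read 239, 270 and 235 against 55.6 to 92.6 in WT (1.53, adjusted p = 0.632 with all groups). Later arrays of both strains read lower. In gat1 it read 181, 208 and 236 at 60 min, then 144, 174 and 107 at 120 min. It was called lower than before 3AT at 60 min (-1.71 ± 0.46, adjusted p = 0.0246; background 2.07%), 90 min (-1.88, 0.0144; 1.09%) and 120 min (-2.24, 0.00217; 0.731%). In leu3 it read 148, 159 and 301 at 90 min (-1.92 ± 0.46, adjusted p = 0.0106; background 1.46%) and 204, 166 and 224 at 120 min (-1.90, 0.0141; 1.23%). The call in gat1 at 120 min held without any single array. At 90 min, where only the arrays of 0 min were left out, and at 60 min the calls were lost without gat1 0 min replicate 1 or 2. At 60 min the call was also lost without replicate 1 or 2 of 60 min (adjusted p up to 0.144). Those in leu3 were lost without leu3 0 min replicate 2 or 3, leu3 90 min replicate 1 or 2, or leu3 120 min replicate 2 (up to 0.112).

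COX4, an oxidase subunit that binds zinc, was called at 3 times in each of these strains. In leu3 it read 1129, 1536 and 1284 at 0 min and 502, 789 and 396 at 20 min (-1.25 ± 0.30, adjusted p = 0.01; background 1.1%), and it was also lower at 30 min (-1.08; 0.962%) and 90 min (-1.17). In gat1 it read 1057, 1034 and 1289 at 0 min and 373, 342 and 800 at 30 min (-1.23 ± 0.30, adjusted p = 0.00667; background 3.01%), and was lower at 20 min (-1.25; 1.87%) and 45 min (-1.12; 2.48%) as well. None of these groups overlapped with the strain's 0 min arrays. The call in gat1 at 30 min held without any single array of 0 min, but no array of 30 min was left out. The other COX4 calls were lost without at least 1 of leu3 0 min replicates 1 to 3, leu3 20 min replicate 3, leu3 90 min replicates 1 and 2, gat1 0 min replicates 1 and 3 or either gat1 array of 20 min (adjusted p up to 0.379). At 20 min COX8 was lower in leu3 (-1.35 ± 0.33, adjusted p = 0.0124). Without leu3 20 min replicate 2, which read 432, the change was -0.86 and not called (adjusted p = 0.206). The call was also lost without leu3 0 min replicate 2 or 3. At 10, 45 and 60 min in leu3 (0.642%, 0.945% and 1.98%) the calls by limma were HAP4, none and none, with 4 and 12 subunits at an unadjusted p under 0.05 at 45 and 60 min. In gat1 HAP4 was the single member called at 10 min (background 1.82%).

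At 20 min in gat1, where there were 2 arrays, 5 members were lower (12.8% of 39, against a background of 1.87%): SDH2, QCR10, COX4, COX7 and ATP17. QCR10, a small subunit of complex III, read 438, 553 and 612 at 0 min and 137 and 123 at 20 min (-1.90 ± 0.39, adjusted p = 0.00164), and ATP17, a subunit of Fo, read 938, 962 and 949 against 398 and 321 (-1.37 ± 0.27, adjusted p = 0.000656). COX7 read 3012, 1853 and 2343 at 0 min against 1211 and 374 (-1.78 ± 0.47, adjusted p = 0.0218), and SDH2 changed by -1.58 (0.0264). None of these genes overlapped between the times. Of 38 subunits 37 had values below 0, with a median of -0.81 against -0.08 over all genes. Without gat1 20 min replicate 2 the count was 0, without gat1 20 min replicate 1 it was 3, without gat1 0 min replicate 3 it was 2, and on scaled arrays only it was 14. QCR10 was lower at 30 min too (-1.20, adjusted p = 0.0366), a call lost without any array of 0 min (up to 0.145). With all groups in the fit, no member was called different between leu3 or gat1 and WT in its change to 20 min (HAP4 of gat1 was in the settings given above; background 0.0891% and 0.0713%), where the number of subunits at an unadjusted p under 0.05 was 4 for leu3 and 3 for gat1, nor in its change to 60 or 120 min, where 0 genes of all those tested were called by limma and 0 to 3 subunits had an unadjusted p under 0.05.

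In gcn4leu3 the members that stood out were COX26 and CYC1. At 0 min COX26 read 949, 854 and 127 against 43.5 to 93.2 in WT (2.62 ± 0.44, adjusted p = 7.63e-06), and it was called without any single array. CYC7 (526, 743 and 124; 2.08 ± 0.59, adjusted p = 0.0252) and QCR9 (1.23 ± 0.37, adjusted p = 0.0432) were also higher, making 3 members (background 3.37%, 1.92% higher). Those 2 calls were lost without gcn4leu3 0 min replicate 1 or 2 or WT 0 min replicate 2 or 3, and CYC7 also without WT 0 min replicate 1 (adjusted p up to 0.375). With all strains on their deposited scale the count was 34 lower, where 5183 genes were called. As in gcn4, replicate 3 was the lowest, and the stress list read 9.53, 9.39 and 8.05 in median log2 level. After 3AT, COX26 was lower at each of the 5 later times, with 58.5, 91.3 and 59.5 at 60 min (-2.55 ± 0.44, adjusted p = 6.74e-05). The calls at 10, 20 and 30 min were lost without gcn4leu3 0 min replicate 1 or 2 (adjusted p up to 0.238), and that at 60 min held without any single array. The call at 45 min held without any single array of 0 min. The arrays of 10, 20 and 45 min were not left out. The change to 60 min differed from that in WT by -2.78 ± 0.62 (adjusted p = 0.0147; background 0.178%), a call lost without WT 0 min replicate 3, WT 60 min replicate 1, gcn4leu3 0 min replicate 1 or 2 or gcn4leu3 60 min replicate 1 or 3 (adjusted p up to 0.26).

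CYC1 read higher in gcn4leu3 on every array after 3AT than before it, and rose at 3 times. It read 1096, 813 and 1256 before 3AT, then 1660, 1906 and 1734 at 10 min, followed by 2138, 2409 and 2007 at 20 min. After 30 min it read 2727, 2799 and 2720, after 45 min 3236, 2716 and 3505, and after 60 min 3038, 3035 and 2814. From 10 min on no array overlapped with 0 min. The changes were called at 30 min (1.39 ± 0.38, adjusted p = 0.0402; background 1.32%), 45 min (1.58, 0.00854; 2.16%) and 60 min (1.50, 0.018; 1.85%). The calls at 30 and 60 min were lost without gcn4leu3 0 min replicate 1 or 2 or any array of 30 or 60 min respectively, and that at 45 min without gcn4leu3 0 min replicate 2 (adjusted p up to 0.337). The arrays of 45 min were not left out. At 20 min the adjusted p was 0.208 (background 1.16%), and the change to 20 or 60 min was not called as different from WT (background 0.178% at both times; adjusted p of 0.999 and 0.641). COX5A was called lower at 10 min (-2.31; background 2.66%) from 702, 799 and 7.44, against 1269, 1203 and 1057 at 0 min. With the isolated low reading left out the change was -0.64 and the adjusted p was 0.302.

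**Figure D5:**
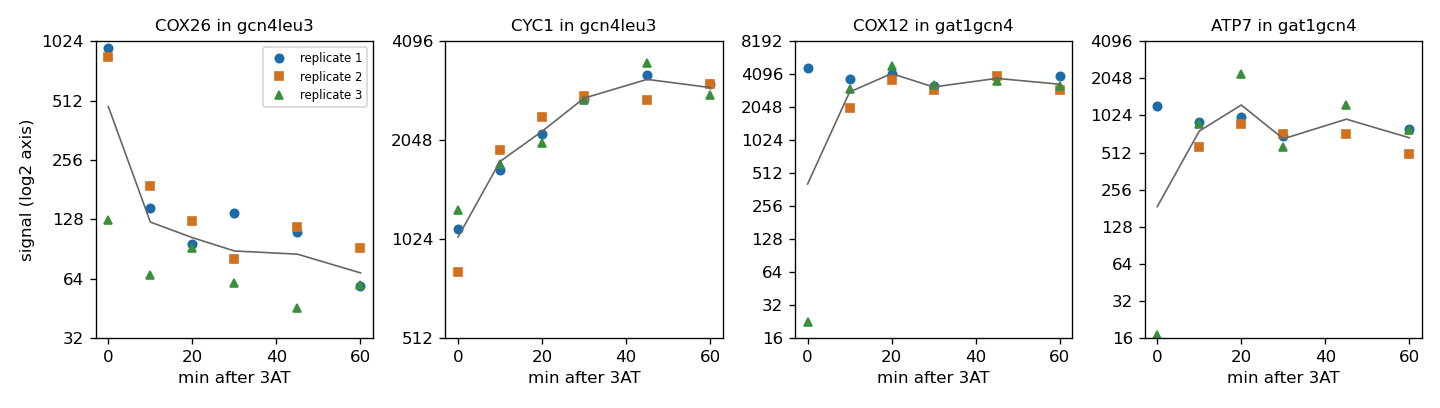
Signals (log2 axis) of COX26 and CYC1 in gcn4leu3 and of COX12 and ATP7 in gat1gcn4 against minutes after 3AT; symbols are arrays by replicate number and lines join group means of log2(signal + 16). COX26 falls from 0 min and CYC1 rises on all arrays, while in gat1gcn4 a single array at 0 min reads 22.6 for COX12 and 17.1 for ATP7.

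In gat1gcn4 and gat1leu3 most calls rested on single arrays. At 0 min in gat1gcn4, which had 2 arrays, COX12, ATP7 and ATP14 were called lower than in WT (3 of 39; background 4.38%, 2.8% lower). With the deposited scale as a block 9 members were called, 6 of them higher. COX12, an oxidase subunit, read 4639 and 22.6, ATP7, subunit d of the stalk, 1222 and 17.1, and ATP14, subunit h, 2065 and 32.9. These low readings are the 3 described above on gat1gcn4 0 min replicate 3. The same 3 genes were called higher than at 0 min at 10 min (background 1.66%), 20 min (2.26%), 30 min (1.85%), 45 min (1.68%) and 60 min (2.3%). Without that array, or with the low readings masked, no member was called at 0 min, and none of the 3 genes at any time (adjusted p of at least 0.124). COX6 (-1.11) was called lower and QCR8 (1.38) higher at 20 min, and both lost their call without gat1gcn4 0 min replicate 3 or gat1gcn4 20 min replicate 3, COX6 also without gat1gcn4 20 min replicate 1 (adjusted p up to 0.954). In gat1leu3 at 0 min COR1, COX8 and ATP14 were called lower than in WT (background 6.68%, 5.79% lower), and without gat1leu3 0 min replicate 2, where COR1 read 11.1 and COX8 221, none was. After 3AT the calls were COR1 at 10 min (background 0.588%), SDH4 at 30 min (2.8%), and COX9 and ATP14 at 60 min (7.27%), with 0 at 20 min (0.642%) and 45 min (2.01%). Without the 4 libraries that disagree with their labels, no member was called at 0 min, and these 4 calls had adjusted p-values of 0.999, 0.883, 0.583 and 0.0587. ATP14 at 60 min read 1150, 4063 and 1448, against 440, 628 and 382 at 0 min (1.96 ± 0.47, adjusted p = 0.00333).

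Counting all 7 strains with replicates, 28 of the 39 members were called at least once against their own 0 min or against WT at 0 min, in 43 comparisons of a time with 0 min and 6 with WT. That is 71.8% of the members, where 36.3% of all genes tested were called at least once in the same comparisons. COX12, ATP7, ATP14, QCR8, SDH4 and COX9 count only through calls in gat1gcn4 or gat1leu3, and COX5A only through gcn4leu3 at 10 min. Those calls rested on the low readings, single arrays or disagreeing libraries described above. Neither share was computed without them. Against 0 min there were 53 calls of a fall and 22 of a rise among 1677 tests of a member (3.16% and 1.31%, against 1.12% and 1.02% of the tests of all genes), and 16 of the rises were those of COX12, ATP7, ATP14 and QCR8 in gat1gcn4 just described. The 11 members never called were SDH1, the flavoprotein of complex II, QCR6, QCR7 and RIP1, the Rieske protein, of complex III, COX13 of the oxidase, ATP3 and ATP15, the gamma and epsilon subunits of F1, and ATP4, ATP5, ATP18 and ATP20. Their changes lay between -1.41 and 1.10. In F-tests over all later times the share of members called was 15.4% in gcn4 (background 11.2%), 7.69% in leu3 (4.81%), 17.9% in gat1 (10.4%), 7.69% in gat1gcn4 (5.01%), 7.69% in gcn4leu3 (5.29%) and 0% in gat1leu3 (5.67%). The members called in gat1gcn4 were COX12, ATP7 and ATP14, the genes with isolated low readings at 0 min. Those in gcn4leu3 were CYC1, COX26 and COX5A, the last with its isolated low reading at 10 min.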

How the data were processed

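RNA sampled from 8 yeast strains was hybridised to 151 Affymetrix YG-S98 arrays of 9335 probe sets. The authors deposited linear MAS5 intensity values, as the submitters' processing notes name the tool without a version. The 73 arrays without a common scale had trimmed means of 22.4 to 104, so every array was rescaled to a 2% trimmed mean of 500. Genes whose signal lay above the array's 20th percentile in at least 2 arrays of a group of 3, or 1 of 2, were tested (5611 of 5656 with a single symbol). The test was limma 3.58.1 in R 4.3.3 on log2(signal + 16), with lmFit, eBayes with a trend, 1 coefficient per group over 145 arrays, two-sided p-values and Benjamini-Hochberg adjustment. The 6 met31 arrays, 1 per time, entered no test. The text names HAP4, both isoform pairs, the members called in each comparison, members with the largest change of a complex without a call, and at most 3 called genes of each other list; HEM14 is named beside HEM13. Other genes are named where counts of few or array values are described, chosen after their values were seen. The members and lists were chosen with earlier results of these data known. Precision is limited by the number of arrays. The fit was tested on simulated data. Alternatives covered scaling, filter, pseudocount, probe sets, weights, blocks, samples in the fit and single arrays left out. The arrays of some groups were not left out. Sequences were not used here.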

Additional observations from a re-analysis of the deposited data

Results flagged for a closer look

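Changes after 3AT differed from those in WT, by limma's test of the difference, for 12 combinations of gene, strain and time, and the differences share the WT arrays. In gat1gcn4 at 20 min (5 members; background 1.53%) the differences were 1.70 for QCR8, 3.79 for COX12, 3.36 for ATP7, 3.93 for ATP14 and 1.96 for HAP4. At 60 min (3 members; 1.09%) they were 3.10 for COX12, 2.27 for ATP7 and 2.54 for ATP14. Without gat1gcn4 0 min replicate 3, the array with the isolated low readings, COX12, ATP7 and ATP14 had differences of 0.34, 0.75 and 1.23 at 20 min, none of them called, and QCR8 and HAP4 were not called either. In gat1leu3 at 20 min (3 members; 1.35%) the differences were 2.75 for SDH4, 2.53 for COR1 and 2.45 for HAP4. Without the gat1leu3 0 and 10 min arrays of replicates 1 and 2 they were 1.51, 1.65 and 2.30, with adjusted p-values of 0.839, 0.522 and 0.255. In gcn4leu3 at 60 min (1 member; 0.178%) the difference was -2.78 for COX26. No cause of these differences was tested.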

How the results depend on the processing

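Counts of members called depended on the setting, and some values changed sign between settings. Masking isolated low readings and leaving out the 4 gat1leu3 arrays were chosen after seeing the data. On values as deposited the counts were 0 for WT at 20 and 120 min, gcn4 at 0 and 10 min and gat1 at 20 and 60 min, and 34, 33 and 39 for gcn4leu3, gat1gcn4 and gat1leu3 at 0 min; the gcn4 0 min median was -0.52, COX6 there -0.24, QCR9 and CYC7 in gcn4leu3 -1.64 and -0.41, HAP4 in WT at 20 min -2.23 (adjusted p = 0.486), and its differences 1.62 in gat1gcn4 and 2.39 in gat1leu3, with no call. With scaled arrays only, counts were 9, 2 and 5 for WT at 20, 60 and 120 min, 23 and 22 for gcn4 at 0 and 10 min, 6 for leu3 at 60 min, 14 and 4 for gat1 at 20 and 60 min, and HAP4 in WT at 60 min, -1.17, was called. With the deposited scale as a block, counts at 0 min were 11 in gcn4, 9 in gcn4leu3 and 9 in gat1gcn4 (6 higher, 3 lower). With array quality weights, they were 18, 2 and 9 for WT at 20, 60 and 120 min, 24, 27 and 5 for gcn4 at 0, 10 and 60 min, 9 for leu3 at 60 min, 12 and 2 for gat1 at 20 and 60 min, 11 for gcn4leu3 and 6 for gat1leu3 at 0 min, and HAP4 in WT at 60 min was -1.32. With only the compared groups in the fit, counts were 8 and 1 for WT at 20 and 60 min, 0 for gcn4 at 0 and 10 min, 1 for leu3 at 60 min and 1, 0 and 0 for gcn4leu3, gat1gcn4 and gat1leu3 at 0 min; HAP4 in WT at 60 min was -1.17 (adjusted p = 0.0217) and its gat1gcn4 difference 1.96 (0.62). Median centring gave 1 member in WT at 20 min, and a pseudocount of 64 gave 1 in WT at 60 min (HAP4, -0.98). Without the 4 gat1leu3 arrays, the count at 0 min was 0 and the HAP4 difference 2.30.

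With isolated low readings masked, gat1gcn4 at 0 min had 0 members called, with 0.57 for COX12, 0.99 for ATP7 and 0.67 for ATP14, and the HAP4 difference of 1.96 had an adjusted p of 0.0602. Against 0 min, the changes after 10, 30, 45 and 60 min were then -0.72, -0.57, -0.31 and -0.48 for COX12 (-0.16 after 20 min), -0.67, -0.87, -0.35 and -0.84 for ATP7, and -0.77, -0.76, -0.32 and -0.42 for ATP14, and the differences from WT at 60 min were -0.36, -0.35 and -0.17. Leaving out gat1gcn4 0 min replicate 3 gave the same changes, so over single arrays left out these results run from those values to the ones without gat1gcn4 0 min replicate 1. The latter were -6.34, -4.24 and -4.74 at 0 min for COX12, ATP7 and ATP14, then 6.198, 6.75, 6.35, 6.61 and 6.43 after 10, 20, 30, 45 and 60 min for COX12, 4.56, 4.36, 4.88 and 4.38 after 10, 30, 45 and 60 min for ATP7 and 4.64, 4.65, 5.09 and 4.99 for ATP14, with differences from WT after 60 min of 6.55, 4.88 and 5.24.

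Leaving out single arrays gave counts of 1 to 3, 0 to 0 and 2 to 3 for WT at 20, 60 and 120 min, 0 to 15, 2 to 21 and 0 to 4 for gcn4 at 0, 10 and 60 min, 0 to 1 for leu3 at 60 min, 0 to 5 and 0 to 1 for gat1 at 20 and 60 min, and 1 to 4, 0 to 4 and 0 to 5 for gcn4leu3, gat1gcn4 and gat1leu3 at 0 min. Medians ran from -0.62 to -0.41, -0.39 to -0.16 and -0.45 to -0.28 for WT at 20, 60 and 120 min and from 0.47 to 0.92 for gcn4 at 0 min. HAP4 ran from -2.44 to -2.07 and -1.39 to -1.01 for WT at 20 and 60 min, -0.50 to -0.13 for gcn4 at 0 min, and its differences from 1.71 to 2.21 in gat1gcn4 and 2.17 to 2.81 in gat1leu3.

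The labels do not say what a replicate number stands for, and the main fit did not use it. Deviations of same-numbered arrays correlated by 0.12 to 0.32 on average per strain, with a lowest value of -0.199. Those of differently numbered arrays correlated by -0.156 to -0.0596 on average. Deviations were taken from the mean of each group, so an average above 0 for the same number brings one below 0 for different numbers. These averages are therefore not separate observations. By the averages for the same number, arrays of the same number were more alike in each strain. Arrays that correlated best with their own number were 22 of 24 in WT, 23 of 23 in gcn4, 24 of 24 in leu3, 22 of 23 in gat1, 16 of 16 in gat1gcn4, 17 of 18 in gcn4leu3 and 12 of 17 in gat1leu3. With the replicate number as a block, counts were 8 for WT at 20 min (2 in the main fit) and 1 at 60 min (0). They were 15 for gcn4 at 10 min (7 in the main fit) and 3 for leu3 at 60 min (0). HAP4 in WT at 60 min, -1.17, then had an adjusted p of 0.0238, and CYC1 in WT at 20 min, 1.06, had 0.0232.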
